A study of Capra hircus with 2 samples.

Results

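CCND1 encodes cyclin D1 and CDKN1A encodes p21, a cyclin-dependent kinase inhibitor. They are 2 of the 27271 features in the gene lists of this series, CCND1 as ENSCHIG00000010534 and CDKN1A as ENSCHIG00000006042, and each symbol stands on 1 feature. Both were taken by symbol, and the pair was proposed with results of these libraries in view, so every value of the members below is a description with no test. Cyclin D1 is made in response to mitogens and binds CDK4 or CDK6, and the active kinase phosphorylates the RB protein and so lets E2F factors switch on the genes of DNA replication. p21 is a classical target of p53 that binds and inhibits cyclin-CDK complexes, above all those of CDK2, and is also made during differentiation and stress without p53. In the fetal ovary the pair bears on a tissue in which oogonia enter meiosis, pregranulosa cells leave the cycle around the oocytes of primordial follicles, and the surface epithelium and stroma grow.

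The series holds fetal ovary of the goat (Capra hircus), female, with 1 library at stage E125 and 1 at stage E85, named for the day of embryonic life. No treatment, breed or genotype is given in the labels, which also do not say how many fetuses gave each suspension, and the dissociation protocol names testes where the tissue and sex labels name ovary. Cells were captured in droplets and 3' ends of their RNA were counted by unique molecular identifiers (UMIs). With 1 library per stage, no value below has a replicate, and a difference between the stages is a difference between these libraries. The intervals are exact 95% intervals that cover counting error only.

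The E125 library held 8346 barcodes and 49692252 UMIs, the E85 library 4397 barcodes and 17748948 UMIs, and 7023 and 3825 cells were kept, with medians of 3193 and 3102 UMIs. The libraries shared 13 barcodes. CCND1, CDKN1A and the gene lists below were left out of the variable genes that formed the clusters. The mean levels of the S phase and mitosis lists were regressed out of those variable genes. Clusters took a class name from marker genes, and LGR5 is both a pregranulosa-like marker and a gene of the WNT list. A name rested on 10 to 12 detectable markers in each library for the germ-cell-like and stromal-like classes and 8 to 10 for the pregranulosa-like and endothelial-like classes. The surface-epithelium-like class rested on 3 (KRT7, KRT8 and KRT19 among its leading genes), and the steroidogenic-like class, named at E85 alone in 17 cells, also on 3. Lymphoid-like cells rested on 4 markers in each library and glia-like cells on 5 at E125. Germ-cell-like cells were led by ZP3, ZP4 and FIGLA, oocyte genes, in both libraries. Unnamed clusters held 557 cells at E125 and 666 at E85. The names are rebuilt here, and another naming could move cells between classes.

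CCND1 was high in endothelial, perivascular and glial classes, and in myeloid-like cells at E125, and low in germ cells, lymphocytes and surface epithelium. It was also high at both stages in an unnamed cluster led by AIF1, a marker of the myeloid-like class, given below. Levels are given as summed UMIs per 1000000 UMIs of the class (CPM), and genes are not compared with each other on this scale. At E125 the order ran from myeloid-like cells at 538 CPM (448 to 640, 67 cells) and glia-like cells at 536 CPM (442 to 644, 78 cells) to perivascular-like cells at 428 CPM (379 to 482, 136 cells) and endothelial-like cells at 351 CPM (335 to 367, 692 cells). Stromal-like cells had 105 CPM (99.5 to 110, 4488 cells), pregranulosa-like cells 41.1 CPM (36.6 to 45.9, 615 cells), surface-epithelium-like cells 20.4 CPM (14.4 to 28.2, 170 cells), germ-cell-like cells 10.5 CPM (8.596 to 12.7, 129 cells) and lymphoid-like cells 7.33 CPM (1.51 to 21.4, 91 cells). The intervals of the myeloid-like, glia-like and perivascular-like classes overlapped at least pairwise in that order, as did those of germ-cell-like and lymphoid-like cells. All other neighbours in the order had intervals that did not overlap.

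At E85 the order was different in the middle. Perivascular-like cells had 379 CPM (282 to 500, 36 cells) and endothelial-like cells 358 CPM (309 to 412, 79 cells), followed by pregranulosa-like cells at 225 CPM (204 to 248, 280 cells) and stromal-like cells at 219 CPM (208 to 231, 2375 cells). Myeloid-like cells had 147 CPM (89.8 to 227, 20 UMIs in 16 cells), and surface-epithelium-like cells had 44.5 CPM (36.3 to 54.1, 259 cells). Germ-cell-like cells had 40.7 CPM (31.6 to 51.5, 68 cells), and lymphoid-like cells had 21.7 CPM (4.48 to 63.4, 26 cells), which rests on 3 UMIs. Glia-like cells numbered 3 at E85 and are not placed in the order. Pregranulosa-like and stromal-like cells thus stood side by side at E85, while at E125 the pregranulosa-like level lay below the stromal-like level.

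CDKN1A had a partly opposite distribution, though lymphoid-like cells were low in both genes and E85 pregranulosa-like cells were high in both. Its levels at E125 were 150 CPM (133 to 169) in surface-epithelium-like cells, 44.8 CPM (40.2 to 49.9) in pregranulosa-like cells and 40.5 CPM (36.7 to 44.6) in germ-cell-like cells, the last 2 with overlapping intervals. Endothelial-like cells had 12.2 CPM (9.41 to 15.5) and stromal-like cells 5.24 CPM (4.11 to 6.57). Perivascular-like and glia-like cells held 1 UMI each. Myeloid-like and lymphoid-like cells held 0, which allows up to 15.6 CPM and 9.01 CPM. The epithelial, pregranulosa and germ classes thus held the gene, and the vascular, stromal and blood classes held little of it.

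At E85 CDKN1A stood at 195 CPM (177 to 214) in surface-epithelium-like cells, 176 CPM (157 to 197) in pregranulosa-like cells and 85.5 CPM (72.1 to 101) in germ-cell-like cells. The first 2 had overlapping intervals. The 17 steroidogenic-like cells had 131 CPM (48.1 to 285) from 6 UMIs, and CCND1 there had 87.3 CPM (23.8 to 224) from 4 UMIs. Myeloid-like cells had 29.4 CPM (8.01 to 75.2) from 4 UMIs, endothelial-like cells 11.2 CPM (4.11 to 24.4) from 6, lymphoid-like cells 7.23 CPM (0.183 to 40.3) from 1, and stromal-like cells 3.38 CPM (2.14 to 5.07) from 23. Perivascular-like cells held 0 UMIs, which allows up to 28.0 CPM.

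**Figure D1:**
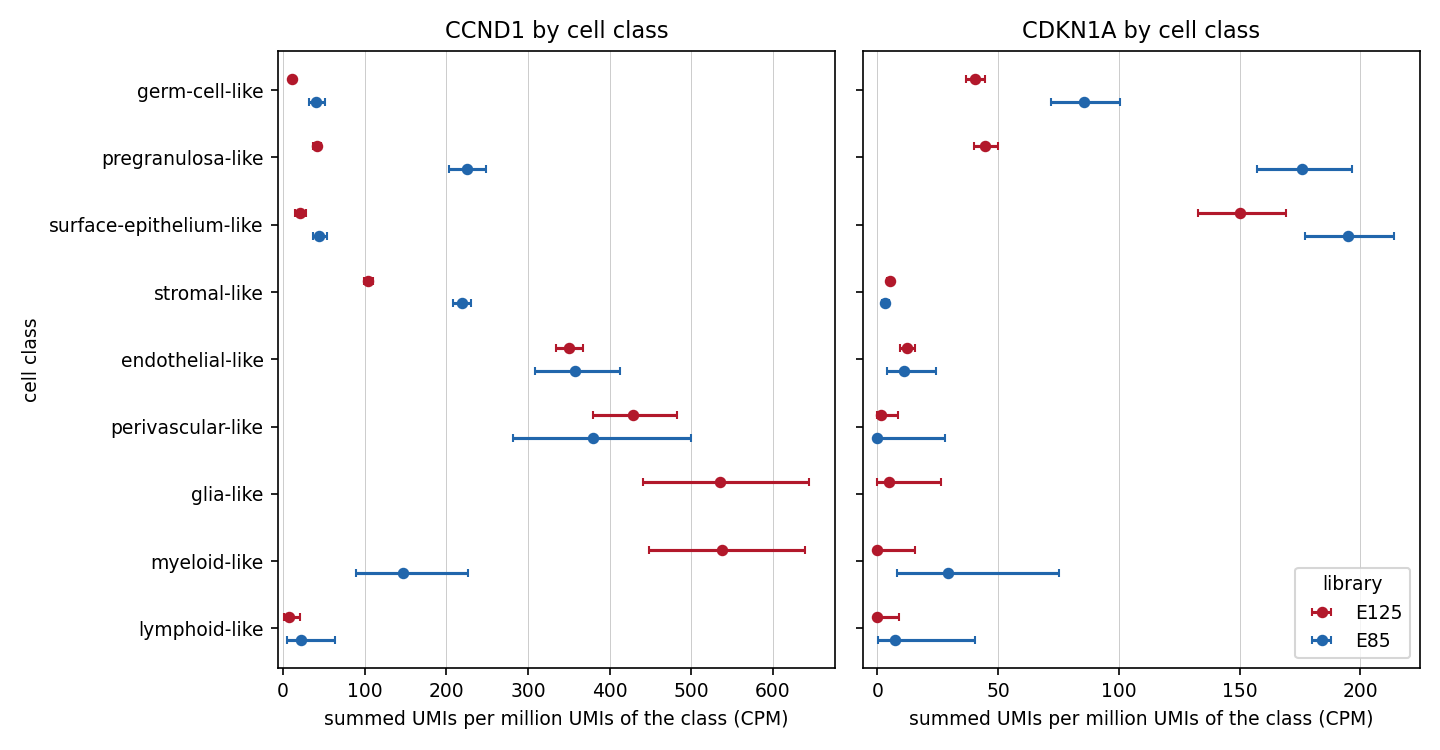
Level of CCND1 (left) and CDKN1A (right) in each cell class, in CPM on the horizontal axis, with E125 above E85 and exact Poisson 95% intervals as bars. CCND1 peaks in glia-like and myeloid-like cells at E125 (536 and 538 CPM), and CDKN1A peaks in surface-epithelium-like cells (150 CPM at E125, 195 CPM at E85). Classes of fewer than 15 cells in a library are not drawn.

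Free RNA in a droplet suspension gives UMIs in cells that do not express a gene. Shares of cells were therefore set beside those of lymphoid-like cells, taken as a class that uses other D cyclins. These libraries do not show such cyclins there, as CCND3 had 1 UMI in lymphoid-like cells of each library and CCND2 is not analysed. Each cell was thinned to 2000 UMIs, and shallower cells were left out. CCND1 was then in 0 of 81 lymphoid-like cells at E125, with an exact upper limit of 4.45%, and in 0 of 23 at E85, with a limit of 14.8%. Before thinning the lymphoid-like shares were 3.30% and 7.69%, at median depths of 4316 and 4399 UMIs. The thinned CCND1 share was 43.8% (39.8 to 47.9) in endothelial-like cells at E125 and 38.8% (27.1 to 51.5) at E85, and unthinned 64.0% and 63.3% at median depths of 4880 and 4452 UMIs. In germ-cell-like cells it was 4.12% (1.14 to 10.2) at E125 and 5.77% (1.21 to 16.0) at E85, and in surface-epithelium-like cells 3.81% (1.05 to 9.47) and 6.30% (3.64 to 10.0). In each library both shares lie below the lymphoid-like limit of that library, so by share alone CCND1 in these classes was not separated from free RNA. The E85 surface-epithelium-like share was 12.7%, 12.5% and 14.2% under the stricter cell filter, the finer clustering and separate clustering. The highest count in a cell was 20 at E125 and 45 at E85 in germ-cell-like cells and 17 in surface-epithelium-like cells of each library. No class is known to lack CDKN1A, and the lymphoid-like shares were also 0 of 81 and 0 of 23. The thinned CDKN1A share was 0.850% (0.570 to 1.22) in stromal-like cells at E125 and 0.505% (0.231 to 0.956) at E85. In endothelial-like cells it was 1.99% (1.03 to 3.45) at E125 and 0 of 67 at E85, which allows up to 5.36%. These shares are small, and with so few lymphoid-like cells whether they exceed free RNA was not tested. The highest CDKN1A count in a stromal-like cell was 2 at E125 and 4 at E85, and in an endothelial-like cell 4 at both stages.

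The largest stage difference of CCND1 was in pregranulosa-like cells, the somatic cells that come to surround the oocytes. They held 307 CCND1 UMIs in 615 cells at E125 and 402 UMIs in 280 cells at E85. The level was 5.49-fold lower at E125 (4.72 to 6.39), and the UMIs per cell were 0.499 at E125 and 1.44 at E85. Thinned to equal depth, 9.06% of cells (6.80 to 11.8) had a CCND1 UMI at E125 and 31.8% (26.3 to 37.6) at E85, and unthinned 21.6% and 55.4%, at median depths of 7912 and 5708 UMIs. Of 7518 genes with 50 or more summed UMIs in this class, 11.3% were 2-fold or more lower and 14.5% were 2-fold or more higher at E125. Fewer expressing cells and less RNA per cell both enter a class sum and cannot be told apart in it. The E125 cells came from 1 cluster led by FST, HSD17B1 and AMH and the E85 cells from another led by ALPL, TRIB2 and ASB9, so the class name covers different clusters at the stages. Under the other cell filters and clusterings that gave a value the CCND1 ratio lay between 0.123 and 0.137, against 0.182 here.

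CDKN1A differed in the same class. It had 335 UMIs at E125 and 314 at E85, a level 3.93-fold lower at E125 (3.36 to 4.60), with 0.545 UMIs per cell at E125 and 1.12 at E85. The thinned share was 7.25% (5.23 to 9.74) at E125 and 23.7% (18.8 to 29.2) at E85, and the unthinned shares were 27.6% and 43.2%. The size of this difference moved with the clustering. The E125 over E85 ratio of 0.255 became 0.445 with a filter of 1000 genes and 10% mitochondrial UMIs, 0.426 at a finer clustering of resolution 2, 0.366 with the cell cycle left in the clustering, and 0.629 with each library clustered on its own, the last being less than a 2-fold difference.

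The highest CDKN1A level of any cluster at either resolution was in a small group of E85 cells. At resolution 2, the 71 E85 cells of a cluster, led by KRT17, CDKN1A, ESM1 and ASB9, had 482 CPM of CDKN1A from 132 UMIs, and 277.5 CPM of CCND1. The 33 E125 cells of that cluster had 3 UMIs of CDKN1A (33.4 CPM, 6.89 to 97.7) and 123 CPM of CCND1, at a median depth of 1208 UMIs. The cluster was picked after its values were seen. CDKN1A was not used to form it. Of the 71 E85 cells, 38 were pregranulosa-like at resolution 1, 20 stromal-like and 13 steroidogenic-like, and at resolution 2 they took the surface-epithelium-like name through KRT8. The other 241 E85 pregranulosa-like cells at that resolution had 120 CPM of CDKN1A and 213 CPM of CCND1. At E125 the finer clustering split the class into 240 cells led by HSD17B1, FST and AMH, with 52.9 CPM of CDKN1A (43.9 to 63.3) and 24.3 CPM of CCND1 (18.3 to 31.6), and 328 unnamed cells led by SYT6 and TRIB2, with 41.9 CPM (36.5 to 48.0) and 48.3 CPM (42.4 to 54.7). Split instead by the UMIs of AMH, the anti-Müllerian hormone gene of granulosa cells, the 297 E125 cells with an AMH UMI had 40.5 CPM of CCND1 and 43.0 CPM of CDKN1A, and the 318 cells with none had 42.5 and 49.0 CPM.

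The members were in the same pregranulosa-like cells more at E85 than at E125. In cells thinned to 2000 UMIs, 2 of 552 E125 cells (0.362%, 0.0439 to 1.30) held a UMI of each gene, against 31 of 274 E85 cells (11.3%, 7.82 to 15.7). CCND1 and CDKN1A were each in fewer cells at E125 (50 and 40 of 552) than at E85 (87 and 65 of 274). The lower single-gene shares by themselves lower the number of cells with both. At E125, CCND1 was in 5.0% of the 40 cells with CDKN1A (0.611 to 16.9) and in 9.38% of the 512 cells without (6.99 to 12.2). At E85, CCND1 was in 47.7% of the 65 cells with CDKN1A (35.2 to 60.5) and in 26.8% of the 209 cells without (20.9 to 33.3). Of the E85 cells of the class, 38 fell at resolution 2 into the cluster led by KRT17 and CDKN1A, which was high in both genes. Their part in the E85 shares was not tested. Cells of 1 library are not replicates, so these shares describe the libraries.

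In stromal-like cells, the collagen-producing cells of the ovary, CCND1 was lower at E125 and CDKN1A was sparse at both stages. CCND1 had 1480 UMIs in 4488 cells at E125 and 1494 UMIs in 2375 cells at E85, a level 2.09-fold lower at E125 (1.95 to 2.25). Thinned shares were 16.5% (15.3 to 17.8) at E125 and 33.3% (31.1 to 35.5) at E85, and unthinned 21.4% and 38.3%. Among all 9890 genes measured there, 10.8% were 2-fold or more lower and 28.7% were past 2-fold in either direction. The ratio of 0.478 crossed the 2-fold line as a mean over cells, at 0.536, and with DESeq2 size factors, at 0.505.

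Within the E125 library the stromal clusters differed more from each other than the stages did. CCND1 had 29.0 CPM (24.6 to 33.9) in 1586 cells led by MGP and COL12A1, 65.1 CPM (52.3 to 80.2) in 473 cells that also had TCF21 among their leading genes, 148 CPM (133 to 164) in 1102 cells led by CCN3 and LMCD1, and 178 CPM (166 to 190) in 1319 cells led by COL1A2, COL1A1 and PENK. At E85 it had 178 CPM (166 to 191) in 1526 cells led by CA3 and ITIH5 and 300.3 CPM (278 to 324) in 841 cells led by LUM, POSTN and COL1A1. At each stage the stromal cluster with the highest CCND1 level had COL1A1 among its leading genes, though it was not the same cluster at both. Each of these 6 clusters was almost wholly of 1 library, so cluster and stage cannot be told apart in them. CDKN1A stood between 2.28 and 9.52 CPM across the same 6 clusters.

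**Figure D2:**
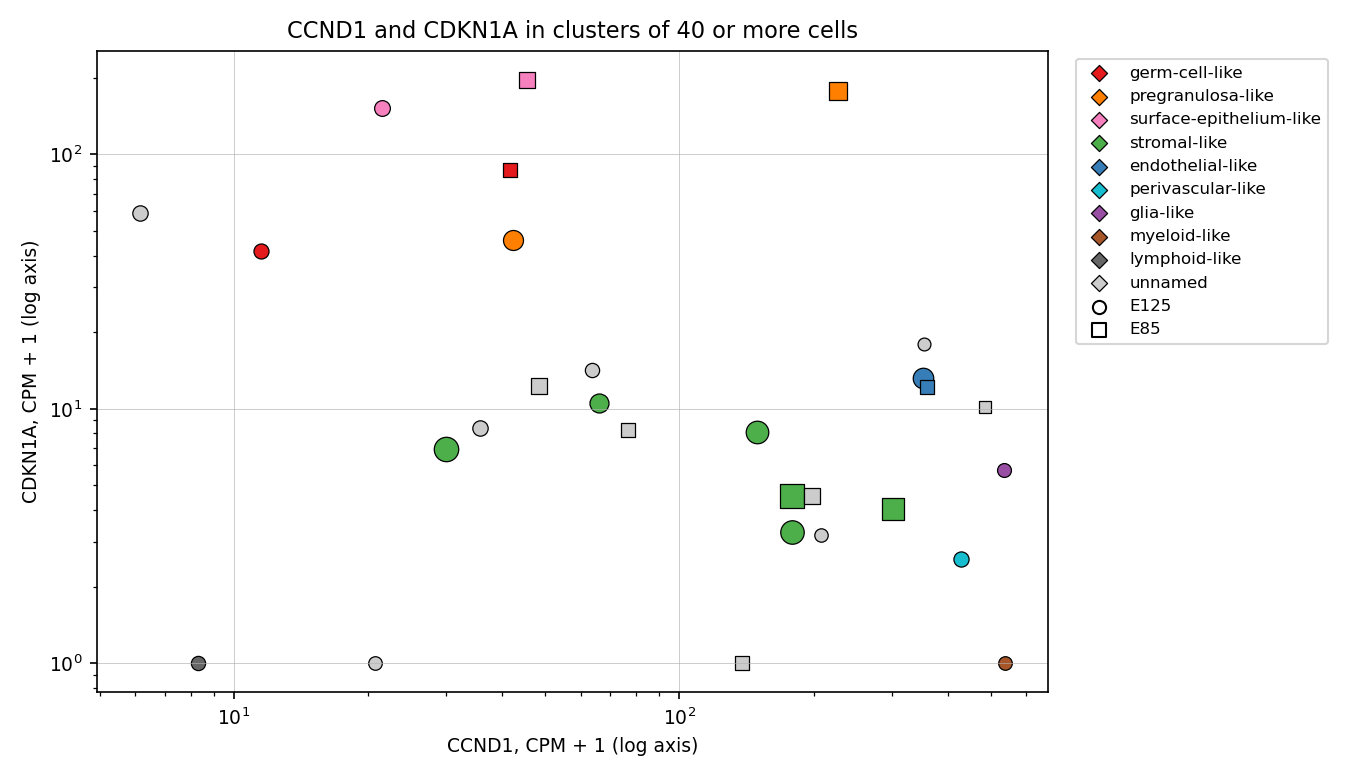
CCND1 (horizontal axis) against CDKN1A (vertical axis) in each resolution-1 cluster that held at least 40 cells of a library, as CPM plus 1 on log axes, with circles for E125, squares for E85, larger symbols for more cells and colours for the class name. Clusters high in CDKN1A are the surface-epithelium-like, pregranulosa-like and germ-cell-like ones and an unnamed E125 cluster at 57.6 CPM, and the E85 pregranulosa-like cluster at 225 CPM of CCND1 and 176 CPM of CDKN1A stands alone in being high in both.

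In surface-epithelium-like cells, the keratin-rich layer that covers the ovary, CDKN1A was high at both stages. It had 272 UMIs in 170 cells at E125 and 442 UMIs in 259 cells at E85, a level 1.30-fold lower at E125 (1.11 to 1.51), with 1.60 and 1.71 UMIs per cell. The thinned shares were 19.0% (12.04 to 27.9) at E125 and 20.9% (16.0 to 26.4) at E85, and the unthinned shares 41.2% and 39.8%, at median depths of 3420 and 6832 UMIs. Thinning left out 65 of the 170 E125 cells as too shallow, against 5 of 259 at E85. Without the cell filter and doublet removal the ratio of 0.771 became 5.48, and the thinned share of the E85 cells that then took the name was 5.96%. CCND1 had 37 UMIs in 13 of the E125 cells and 101 UMIs in 41 of the E85 cells, a level 2.18-fold lower at E125 (1.48 to 3.27), where 9.75% of 5960 measured genes were 2-fold or more lower. The CCND1 ratio of 0.459 became 0.251 with the stricter filter and 0.233 with separate clustering. An unnamed E125 cluster of 146 cells led by ERICH3, CPXM2, NMB and CITED1, the last 2 also leading genes of the E85 surface-epithelium-like cluster, had 57.6 CPM of CDKN1A (48.9 to 67.4) and 5.17 CPM of CCND1 (2.83 to 8.67).

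In germ-cell-like cells the direction of CDKN1A depended on the scale. It had 409 UMIs in 129 droplets at E125 and 145 UMIs in 68 droplets at E85. In CPM the level was 2.11-fold lower at E125 (1.73 to 2.56), while per droplet it was 3.17 UMIs at E125 and 2.13 at E85. Median depth was 52865 UMIs at E125 and 4116 at E85. The thinned shares were 5.15% (1.69 to 11.6) and 13.5% (5.59 to 25.8), and the unthinned shares, which go the other way, 51.9% and 26.5%. Of 9010 measured genes, 17.8% were 2-fold or more lower. The ratio of 0.474 became 0.605 with TMM scaling, 0.594 with DESeq2 size factors and 0.670 as a mean over cells, all less than 2-fold. Over all genes of this class the median log2 ratio was 0.28, 0.26 and 0.30 under those scalings, against -0.07 as reported.

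Germ-cell-like droplets were also split by depth. Droplets of 20000 or more UMIs numbered 70 at E125 and 22 at E85, and had 40.98 CPM (37.1 to 45.2) and 90.2 CPM (75.8 to 107). A CDKN1A UMI was in 92.9% of them at E125 and in 59.1% at E85. They held 9930875 of the 10095587 UMIs of the class at E125 and 1540726 of 1696664 at E85, so most UMIs of a gene fall in them. The 59 smaller droplets at E125 held 2 CDKN1A UMIs (12.1 CPM, 1.47 to 43.9) and the 46 at E85 held 6 (38.5 CPM, 14.1 to 83.8). Without the droplet of most CDKN1A UMIs in each library the levels were 39.5 CPM at E125 and 72.3 CPM at E85.

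CCND1 in germ-cell-like cells rested on a few droplets. It had 106 UMIs at E125 and 69 at E85, 3.87-fold lower at E125 (2.82 to 5.29). In the E85 library 1 droplet held 45 of the 69 UMIs. Without the droplet of most CCND1 UMIs in each library the levels were 8.66 CPM (6.93 to 10.7) at E125 and 15.1 CPM (9.69 to 22.5) at E85, less than a 2-fold difference.

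Endothelial-like cells, the lining of blood vessels, kept a high CCND1 level at both stages. CCND1 had 1870 UMIs at E125 and 192 at E85, a ratio of 0.979 (0.844 to 1.14), with 2.70 and 2.43 UMIs per cell. In this class 7.47% of 6788 measured genes were 2-fold or more lower and 19.0% were 2-fold or more higher. CDKN1A had 65 UMIs at E125 and 6 at E85, a ratio of 1.09 (0.474 to 3.08), whose interval spans 2-fold changes in both directions. An unnamed E125 cluster of 61 cells led by CCL21 and FLT4, with PROX1, known genes of lymphatic vessels, had 207 CPM of CCND1 (168 to 254). A further unnamed cluster was led by AIF1, a marker of the myeloid-like class, and had HLA-DRA among its genes. It had 353 CPM (294 to 421) in 45 cells at E125 and 484 CPM (412 to 566) in 40 cells at E85. Its cells are outside the myeloid-like levels given above.

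**Figure D3:**
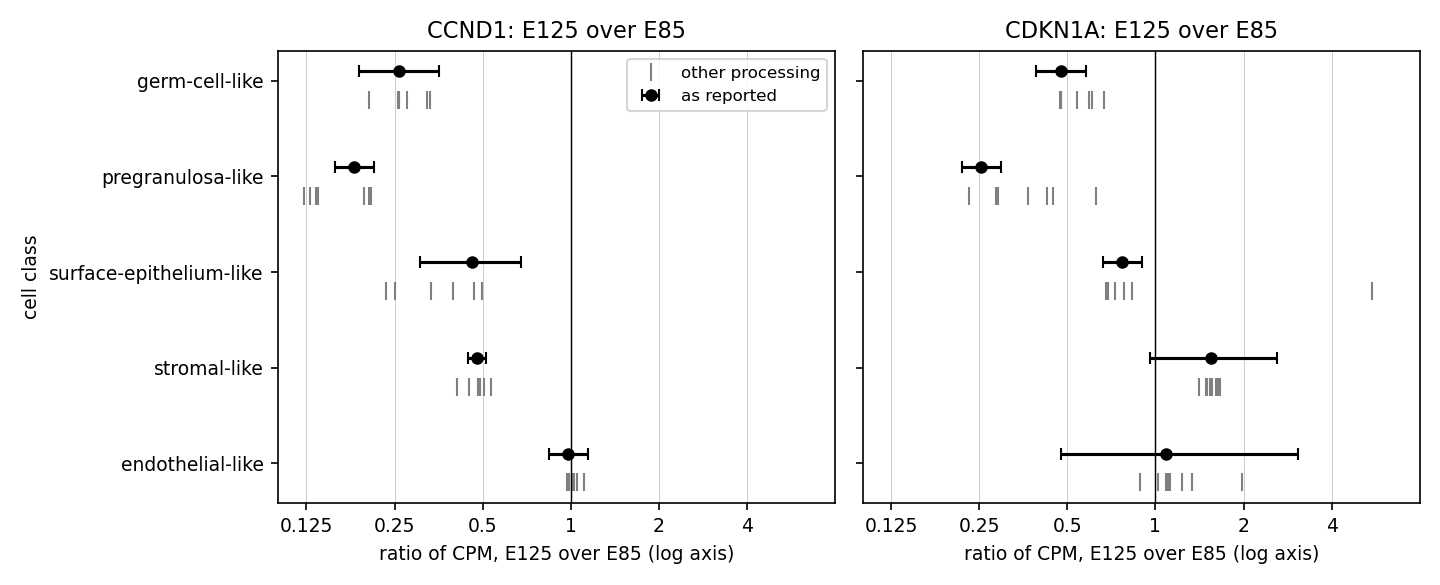
Ratio of CPM, E125 over E85, of CCND1 (left) and CDKN1A (right) in the 5 compared classes on a log axis, with black points and exact conditional 95% intervals for the values as reported and grey ticks for each other processing that gave a value. CCND1 lies below 1 in 4 classes and at 0.979 in endothelial-like cells, and CDKN1A in surface-epithelium-like cells has 1 tick at 5.48.

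CCND1 was 2-fold or more lower at E125 in 4 of the 5 compared classes, and CDKN1A in 2 of them, as summed here. Of these, CCND1 in germ-cell-like cells was within 2-fold without 1 droplet per library, and CCND1 in stromal-like cells was within 2-fold under 2 other scalings (0.536 and 0.505). In surface-epithelium-like cells CCND1 at E125 rested on 37 UMIs in 13 cells, 17 of them in 1 cell. By share alone CCND1 was not separated from free RNA in the surface-epithelium-like and germ-cell-like classes. CDKN1A was within 2-fold in germ-cell-like cells under 3 other scalings (0.594 to 0.670) and without the cell filter (0.539), and in pregranulosa-like cells with separate clustering (0.629). For germ-cell-like, pregranulosa-like, surface-epithelium-like, stromal-like and endothelial-like cells in turn, the share of all measured genes 2-fold or more lower was 17.8%, 11.3%, 9.75%, 10.8% and 7.47%. The pair was chosen with these contrasts known, so nothing is read from that comparison. Over all kept cells CCND1 had 102 CPM at E125 and 169 CPM at E85, and CDKN1A had 29.3 and 58.9 CPM. Those sums also move with the share of each class in the suspension.

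Dividing cells were marked by a UMI of TOP2A, the topoisomerase of S phase to mitosis, and compared with the other cells of the same class and library. In E125 stromal-like cells, the 111 dividing cells had 45.3 CPM of CCND1 and the other 4377 cells 107 CPM, a ratio of 0.424 (0.268 to 0.639). In E85 stromal-like cells, the 41 dividing cells had 325 CPM and the other 2334 cells 217 CPM, a ratio of 1.498 (1.11 to 1.98). Dividing cells were deeper, with medians of 3741 against 2795 UMIs at E125 and 3703 against 2702 at E85. A pair of clusters with TOP2A among their leading genes, which stayed unnamed and outside these counts, had 29.7 CPM of CCND1 (20.8 to 41.1, 213 cells) at E125 and 69.1 CPM (46.3 to 99.3, 90 cells) at E85.

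In E125 endothelial-like cells CCND1 had 352 CPM in 74 dividing cells and 350 CPM in 618 others, a ratio of 1.006 (0.899 to 1.12). In E125 germ-cell-like cells it had 10.1 CPM in 66 droplets with TOP2A and 12.7 CPM in 63 without, at median depths of 135238 and 2006 UMIs, so the split there is also a split by depth. E125 pregranulosa-like cells had 65.3 CPM in 47 dividing cells and 37.4 CPM in 568 others, a ratio of 1.75 (1.31 to 2.31), which became 0.513, 0.656 and 0.712 under the stricter filter, the finer clustering and separate clustering, and 2.36 with the cell cycle left in the clustering. CDKN1A in the same split had a ratio of 1.09 (0.784 to 1.48) in pregranulosa-like cells and 1.09 (0.566 to 1.96) in endothelial-like cells at E125. In E125 germ-cell-like droplets its ratio was 0.766 (0.592 to 1.00), and in E125 stromal-like cells it was 1.95 (0.613 to 4.77), from 5 UMIs in dividing cells.

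The partners of cyclin D1 differed between the stages in ways of their own. CDK4, a catalytic partner, was 2-fold or more lower at E125 in the 4 classes where it was measured, though within 2-fold in germ-cell-like cells with TMM (0.621), with DESeq2 size factors (0.609) and without the cell filter (0.565). It had 7.15 CPM at E125 and 22.3 CPM at E85 in stromal-like cells and 8.16 and 28.6 CPM in pregranulosa-like cells. CDK6, the other partner, went the opposite way, with 103 UMIs at E125 and 7 at E85 in stromal-like cells (7.29 and 1.03 CPM), and 61 and 6 UMIs in pregranulosa-like cells (8.16 and 3.36 CPM). CCND3, another D cyclin, stayed at 15 UMIs or fewer in every compared class and library, and CCND2 is not analysed here. RB1, the target of the D cyclin kinases, was more than 2-fold higher at E125 in 4 classes, with 25.1 CPM at E125 and 7.63 CPM at E85 in stromal-like cells and 46.4 and 16.8 CPM in surface-epithelium-like cells. In germ-cell-like cells RB1 had 11.4 CPM at E125 and 9.43 CPM at E85. E2F5, a repressor E2F, had 89 UMIs at E125 and 1 at E85 in stromal-like cells.

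The relatives of p21 differed from it. CDKN1C, which encodes the inhibitor p57, was 2.68-fold higher at E125 in stromal-like cells (2.50 to 2.88), with 372 CPM at E125 and 139 CPM at E85. It had 247 and 82.0 CPM in endothelial-like cells, 69.2 and 15.3 CPM in germ-cell-like cells, 289 and 185 CPM in pregranulosa-like cells, and 258 and 236 CPM in surface-epithelium-like cells. CDKN1B, which encodes p27, had 103 CPM at E125 and 56.5 CPM at E85 in stromal-like cells, 93.6 and 46.6 CPM in endothelial-like cells, and 62.2 and 41.5 CPM in pregranulosa-like cells. The endothelial-like ratio of CDKN1B, 2.007, was just under 2-fold in 4 alternatives (1.89 to 1.99). In pregranulosa-like cells CDKN1A was thus lower at E125 while CDKN1B and CDKN1C were higher, each by less than 2-fold. The INK4 genes CDKN2A, CDKN2B, CDKN2C and CDKN2D, inhibitors of CDK4 and CDK6, had 17 UMIs or fewer in each compared class and library.

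**Figure D4:**
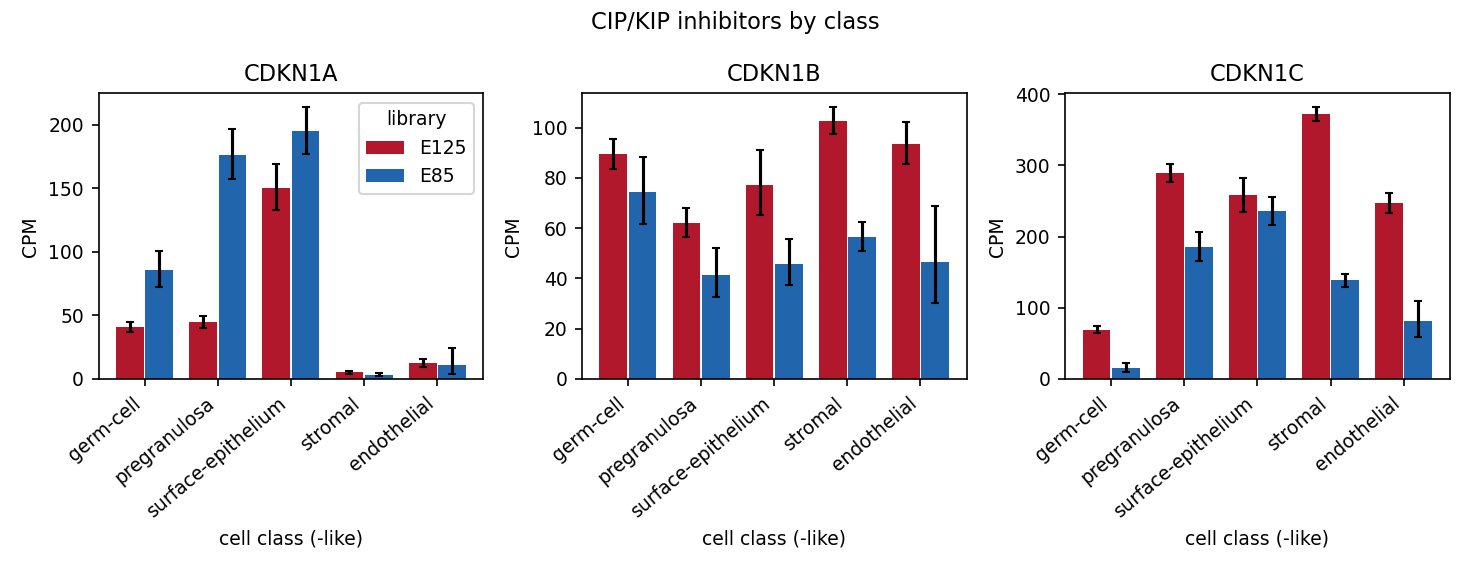
Levels of the 3 CIP/KIP inhibitors CDKN1A, CDKN1B and CDKN1C in CPM by class, with E125 left of E85 and exact Poisson 95% intervals as error bars, each gene on its own vertical axis. CDKN1A is lower at E125 in the germ, pregranulosa and surface-epithelium classes, while CDKN1C is 2-fold or more higher at E125 in the stromal, endothelial and germ classes. CDKN1B in the germ class and CDKN1C in the surface-epithelium class have ratios whose intervals include 1.

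The other genes of the pathway came from 8 lists of 116 genes, of which 101 had a feature, the members included. Summed UMIs were higher at E125 in every compared class but the surface-epithelium-like one. A gene there meets the minimum of 50 summed UMIs mostly through E125, so counts of higher genes are not read as support for a direction. In stromal-like cells 16 were 2-fold or more higher and 9 lower of 68 measured, with 17.9% and 10.8% of all genes so. The counts were 13 and 9 of 52 in pregranulosa-like cells (14.5% and 11.3% of all genes), 17 and 7 of 53 in endothelial-like cells (19.0% and 7.47%), 9 and 13 of 63 in germ-cell-like cells (19.2% and 17.8%), and 7 and 6 of 34 in surface-epithelium-like cells (12.8% and 9.75%).

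Counts of regulators and targets of p53 are given by class beside the shares of all genes. In pregranulosa-like cells 0 of 11 measured were higher and 1 was lower (14.5% and 11.3% of all genes), with a median log2 ratio of 0.06 against -0.05 over all genes. MDM2, a p53 target that also degrades p53, had 38.7 CPM at E125 and 37.0 CPM at E85 there, and CCNG1, another target, had 59.8 and 56.6 CPM. In germ-cell-like cells 0 of 13 were higher and 4 lower (19.2% and 17.8% of all genes), at a median of -0.81 against -0.07. MDM2 had 23.9 and 53.6 CPM in germ-cell-like cells, a direction that turned as a mean over cells, at 1.04. In surface-epithelium-like cells 1 of 6 was higher and 2 lower (12.8% and 9.75% of all genes), at a median of -0.55 against 0.04. In stromal-like cells 2 of 13 were higher and 1 lower (17.9% and 10.8% of all genes), at a median of 0.24 against -0.02. In endothelial-like cells it was 1 of 10 each way (19.0% and 7.47%), at 0.11 against 0.16. BAX, which promotes apoptosis, was 2-fold or more lower at E125 in all 5 classes, with 18.5 and 37.6 CPM in pregranulosa-like cells and 7.64 and 21.0 CPM in stromal-like cells. In pregranulosa-like cells BAX was within 2-fold under 5 alternatives (0.552 to 0.600).

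Several genes of mitosis were higher at E125 in somatic classes. The minimum of 50 summed UMIs is met mostly through E125 in the classes given here, whose summed UMIs were higher there, so the counts are not read as support for a direction. In endothelial-like cells 6 of 6 measured genes, of 9 with a feature, were 2-fold or more higher (19.0% of all genes), at a median log2 ratio of 1.87 against 0.16 over all genes. In pregranulosa-like cells it was 4 of 6 (14.5% of all genes), at 1.82 against -0.05. TOP2A had 98.5 CPM at E125 and 10.7 CPM at E85 in pregranulosa-like cells and 171 and 20.5 CPM in endothelial-like cells. With the cell cycle left in the clustering, the endothelial-like ratios of TOP2A and TPX2 became 1.82 and 1.60, against 8.35 and 3.42, and the TOP2A ratio became 3.18 with separate clustering. The pregranulosa-like TOP2A ratio of 9.24 became 20.3 to 37.7 under the stricter filter and the other clusterings. CENPF, a kinetochore protein, had 125.4 and 15.1 CPM in pregranulosa-like cells. In stromal-like cells 4 of 6 were higher and 0 lower (17.9% and 10.8% of all genes), at 1.22 against -0.02, among them CENPF with 33.1 and 15.3 CPM. The direction of CENPF, TPX2 and CCNB2 turned without the cell filter, at ratios of 0.746, 0.970 and 0.841. The 4 were AURKA, CCNB2, CENPF and TPX2, at 927, 225, 452 and 122 CPM in E125 germ-cell-like cells. TOP2A and BUB1, within 2-fold in stromal-like cells, had 20.7 and 46.65 CPM in those germ-cell-like cells. The part of free oocyte RNA in the stromal-like values was not tested. The stromal-like CENPF and TPX2 ratios were 1.34 and 1.32 with the cell cycle left in, and that of CENPF was 1.29 with separate clustering. In germ-cell-like cells 0 of 7 were higher and 1 lower (19.2% and 17.8% of all genes). CCND1 in pregranulosa-like cells was thus lower in the library where these genes were higher.

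Counts of S phase genes are given in the same way. In germ-cell-like cells 2 of 12 were higher and 2 lower (19.2% and 17.8% of all genes), and in endothelial-like cells 2 of 8 were higher and 0 lower (19.0% and 7.47%). In surface-epithelium-like cells 0 of 4 passed either way (12.8% and 9.75%). In stromal-like cells 0 of 13 were higher and 2 lower (17.9% and 10.8% of all genes), RRM2 (23 UMIs at E125 and 34 at E85) and CDC6 (24 and 32 UMIs), both within 2-fold at resolution 2 (0.591 and 0.665). In pregranulosa-like cells 3 of 8 were higher and 0 lower (14.5% and 11.3%), among them MCM7 of the replicative helicase with 64.4 CPM at E125 and 27.5 CPM at E85, and PCNA, the polymerase clamp, had 10.7 and 20.2 CPM.

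Genes of dissociation stress and the immediate early response, which can move CCND1 and CDKN1A in other systems, differed between the libraries in both directions. JUN was more than 2-fold higher at E125 in all 5 classes, with 582 CPM at E125 and 103 CPM at E85 in stromal-like cells and 501 and 71.8 CPM in pregranulosa-like cells. FOS was 2-fold or more lower in all 5, with 64.5 and 269 CPM in stromal-like cells and 114 and 238 CPM in pregranulosa-like cells. In pregranulosa-like cells FOS was within 2-fold with TMM (0.542), DESeq2 size factors (0.535), the stricter filter (0.552), resolution 2 (0.536), separate clustering (0.592) and the cell cycle left in (0.553). HSPA8, a constitutive heat shock protein, had 316 and 651 CPM in pregranulosa-like cells, a ratio of 0.486 that lay between 0.440 and 0.662 over its alternatives. By list, 4 of 15 were higher and 3 lower in stromal-like cells (17.9% and 10.8% of all genes). The counts were 3 and 4 of 11 in pregranulosa-like cells (14.5% and 11.3%) and 1 and 5 of 13 in endothelial-like cells (19.0% and 7.47%). They were 2 and 3 of 8 in germ-cell-like cells (19.2% and 17.8%), and 2 and 2 of 8 in surface-epithelium-like cells (12.8% and 9.75%). Their part in the differences of CCND1 and CDKN1A was not tested.

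Among WNT and mitogen targets, a list that shares upstream signals with CCND1, 4 of 5 were higher and 0 lower in endothelial-like cells, where 19.0% and 7.47% of all genes were. The minimum of 50 summed UMIs is met mostly through E125 there, so this count is not read as support for a direction. LEF1, AXIN2, ETV5 and ZNRF3 were the 4, with 46, 7, 2 and 1 UMIs at E85. The interval of the ETV5 ratio, 0.855 to 27.2, includes 1. The counts were 3 and 0 of 6 in germ-cell-like cells (19.2% and 17.8% of all genes), 2 and 0 of 7 in stromal-like cells (17.9% and 10.8%), 1 and 1 of 4 in pregranulosa-like cells (14.5% and 11.3%), and 1 and 1 of 6 in surface-epithelium-like cells (12.8% and 9.75%). AXIN2, a feedback inhibitor of WNT signalling, had 45.0 CPM at E125 and 13.1 CPM at E85 in endothelial-like cells, 35.7 and 26.4 CPM in stromal-like cells, and 33.3 and 19.1 CPM in pregranulosa-like cells. ZNRF3, which removes WNT receptors, was higher at E125 in all 5 classes, with 59.0 and 6.73 CPM in pregranulosa-like cells. LEF1, a transcription factor of the pathway, had 8.97 and 22.4 CPM in pregranulosa-like cells, and its direction turned with the cell cycle left in the clustering, at a ratio of 1.21.

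The genes most like each member over the class sums were found by Pearson's r of log2(CPM + 10) over 14 sums of 50 or more cells, among 3713 genes. For CCND1 they were BNIP2 (r = 0.93), FCHO2 (0.88), ARFIP1 (0.86), CEP170 (0.86) and EIF2AK2 (0.85). For CDKN1A they were SYCN (r = 0.95), DSP (0.93), NMB (0.92), S100A1 (0.92) and CYTL1 (0.91). DSP encodes desmoplakin, a protein of epithelial junctions, and was at 287 CPM in E125 surface-epithelium-like cells and at 0 UMIs in E85 endothelial-like cells. The sums share 2 libraries and differ in depth, so these values rank genes within this series.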

How the data were processed

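Droplet RNA sequencing counted UMIs in fetal goat ovary with 1 library per stage. The authors deposited whole-number UMI counts per gene and barcode with no normalization. The submitters' processing notes name Cell Ranger 3.1, while per the file headers the matrices name Cell Ranger 6.0.0. The genome build is not stated in the labels or headers used here. Of 27271 features, 10655 had no symbol. No sequence or coordinate of the members is printed, as none is held for these identifiers.

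Barcodes with under 500 genes or over 20% mitochondrial UMIs were left out (809 at E125, 425 at E85). Scrublet's own threshold called 0 and 2 barcodes and so had not worked, and the top scores at 0.8% per 1000 barcodes were removed (557 and 155), so some doublets may remain. Counts scaled to 10000 per cell gave 2000 variable genes per library without the members and listed genes. S-phase and mitosis means were regressed out, and Leiden clustering at resolution 1 ran on 15 neighbours in 30 components (scanpy 1.11.5, igraph 0.11.9). The naming rule was chosen after the clusters were seen. A cluster of 15 or more cells took a class when its markers averaged at least 0.3 of their highest cluster level in the library, at least 3 reached 0.25, and at least 1 was among its top 10 genes by fold. Markers under 20 CPM everywhere were left out.

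UMIs were summed per class and library. Classes with 50 or more cells in both libraries were compared for genes with 50 or more summed UMIs at 2-fold. In a ratio of sums, 3 UMIs replaced any smaller sum. Sums have exact Poisson, ratios exact conditional and shares exact Clopper-Pearson 95% intervals (scipy 1.17.1), for counting error only. No test was run and no p-value is given. Shares used cells thinned to 2000 UMIs. Leaving out shallower cells kept, for instance, 3411 of 4488 stromal-like cells at E125 and 1783 of 2375 at E85, 552 of 615 and 274 of 280 pregranulosa-like cells, and 97 of 129 and 52 of 68 germ-cell-like cells. It kept 105 of 170 and 254 of 259 surface-epithelium-like cells. The ratio step was tested on simulated data. TMM factors came from edgeR 4.0.16 and size factors from DESeq2 1.42.0, used for scaling alone. Dividing cells were to be marked by MKI67 or TOP2A, and TOP2A alone was used.

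Members, lists and rules were chosen with earlier results of these data known. Named genes are the members, listed genes past 2-fold (up to 4 of highest CPM per list and class, a part of them printed) and the 5 most like each member. Other listed genes are named for their role, after their values were seen.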

Additional observations from a re-analysis of the deposited data

Results flagged for a closer look

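The stage ratio of CDKN1A lay below 1 in some classes and above 1 in others. The E125 over E85 ratio was 0.474 in germ-cell-like, 0.255 in pregranulosa-like and 0.771 in surface-epithelium-like cells, and 1.55 in stromal-like and 1.09 in endothelial-like cells. The difference between classes was not tested, since each stage is 1 library. The stromal-like ratio rests on 74 UMIs at E125 and 23 at E85, with an interval of 0.960 to 2.60, and the endothelial-like ratio on 65 and 6 UMIs, with an interval of 0.474 to 3.08, so both intervals include 1 and no class shows a higher level at E125 beyond counting error.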

How the results depend on the processing

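With 1 library per stage no replicate could be left out. No paired analysis was possible because each stage has 1 library and no test was run. Limits: classes rest on rebuilt names, no spread between animals is known, and sums of few UMIs carry wide intervals. Of 266 values recomputed for the members and list counts, 212 stayed within their counting interval or, for counts, within 1.5 times, and 54 did not. Pregranulosa-like cells without the cell filter, surface-epithelium-like cells at resolution 2 and with the cell cycle left in the clustering (an alternative chosen after seeing the data), and germ-cell-like cells under the stricter filter fell under 50 cells in a library and gave no ratio. The cause of the moves below was not tested.

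Scaling moved the CDKN1A ratio in germ-cell-like cells to 0.605 (TMM), 0.594 (DESeq2) and 0.670 (mean over cells), and the CCND1 ratio in stromal-like cells to 0.536 (mean over cells). The median log2 ratio of all genes moved to 0.13 (TMM) in pregranulosa-like cells against -0.05, to 0.15 (DESeq2) and 0.25 (mean over cells) in surface-epithelium-like cells against 0.04, and to 0.33 (TMM) in endothelial-like cells against 0.16. With TMM 2469 genes were higher and 871 lower in germ-cell-like cells against 1730 and 1605, 1330 and 607 in pregranulosa-like cells against 1091 and 850, and 1645 and 358 in endothelial-like cells against 1292 and 507. With size factors 912 were higher and 463 lower in surface-epithelium-like cells against 765 and 581, and 1336 and 615 as a mean over cells. List genes past 2-fold numbered 39 as a mean over cells and 41 with no minimum of UMIs in germ-cell-like cells (22 as reported), and with no minimum 48 in pregranulosa-like (22), 28 in surface-epithelium-like (13) and 50 in endothelial-like cells (24).

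The stricter filter, resolution 2, separate clustering and the cell cycle left in moved the pregranulosa-like CCND1 ratio to 0.123, 0.129, 0.135 and 0.137, the CDKN1A ratio to 0.445, 0.426, 0.629 and 0.366, and the E125 share of cells with CCND1 to 5.88%, 6.78%, 6.08% and 6.29%. They moved the ratio of CCND1 in dividing over other E125 pregranulosa-like cells to 0.513, 0.656, 0.712 and 2.36. The E125 pregranulosa-like share with CDKN1A moved to 9.96%, 10.2% and 11.5% under the stricter filter, resolution 2 and the cell cycle left in, and the E85 share to 14.3% with separate clustering. In surface-epithelium-like cells the CCND1 ratio moved to 0.251 (stricter filter) and 0.233 (separate clustering), and the CDKN1A ratio to 5.48 with no cell filter. The E85 share with CCND1 there moved to 12.7%, 12.5% and 14.2% under the stricter filter, resolution 2 and separate clustering. The share with CDKN1A there moved to 31.8% at E125 and 27.1% at E85 with separate clustering, and to 5.96% at E85 with no cell filter. In stromal-like cells separate clustering moved the CCND1 ratio to 0.409, and the E85 share moved to 37.1% with it and 31.0% with the stricter filter. The ratio in dividing over other cells moved to 2.12 in E85 stromal-like cells at resolution 2 and to 1.17 in E125 endothelial-like cells with the cell cycle left in.

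Thinning to 1000 UMIs lowered shares. CCND1 was then in 4.41% of pregranulosa-like, 9.97% of stromal-like and 24.6% of endothelial-like cells at E125, and in 16.8%, 18.1% and 20.8% at E85. CDKN1A was in 7.53% of surface-epithelium-like and 0.879% of endothelial-like cells at E125, and in 4.55% of germ-cell-like, 16.4% of pregranulosa-like and 14.01% of surface-epithelium-like cells at E85. Among 652 values recomputed for other named genes, 90 others moved beyond their interval and 7 turned direction, which were MDM2 in germ-cell-like cells (1.04 as a mean over cells), LEF1 in pregranulosa-like cells (1.21 with the cell cycle left in), CENPF and AURKA in surface-epithelium-like cells (0.508 and 0.917, stricter filter), and CENPF, TPX2 and CCNB2 in stromal-like cells (0.746, 0.970 and 0.841, no cell filter).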
